A study of Mus musculus with 2 samples.

Results

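Mature microRNAs were profiled in total liver RNA of mice on the short-term ethanol feeding model, and the libraries described are those of the second of 2 deposited tables, called experiment 2. It holds reads per 1000000 reads on microRNAs (RPM) for 1 ethanol-fed and 1 pair-fed library. Of the 1915 microRNA names in this table, the 469 with a value above 0 in at least 1 of these 2 libraries were taken, out of 583 such microRNAs in the series as a whole. All mice were female C57BL/6 of 8 to 10 weeks, and all had the control Lieber-DeCarli liquid diet for 5 days of acclimatization. The ethanol-fed mice then had this diet with 5% (v/v) ethanol for 10 days and a gavage of 6 g/kg ethanol on day 16, as the protocol states, while the design text of the series gives 16 days of ethanol feed. Pair-fed mice were kept on an isocaloric diet without ethanol and had a gavage of isocaloric dextrin-maltose. All livers were taken 9 h after the gavage. Whether a library is 1 animal or a pool is not stated in the sources used here, and the spread between animals is therefore unknown. Every comparison is between libraries and not between conditions, has no replicate check and no test, and in a whole liver fewer cells of a type cannot be told apart from less RNA per cell.

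A microRNA hairpin is cut into a 5p and a 3p arm, and usually 1 of them is kept by an Argonaute protein. The loaded arm pairs with messenger RNAs mainly through its seed, bases 2 to 8 from the 5′ end, and lowers their translation and stability. MicroRNAs with the same seed form a family that can share targets, and hairpins close to each other on a chromosome are often cut from the same primary transcript. Hepatocytes are known for a very high level of miR-122, whereas miR-451a is a microRNA of red cells, miR-142a and miR-223 of white cells, miR-126a of endothelium, the miR-200 family of epithelium and miR-216a, miR-216b, miR-217 and miR-375 of pancreas.

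RefSeq (assembly GRCm38.p6) gave a mature sequence for 396 of the 469 microRNAs, and those that carry the results are shown 5′ to 3′ with the seed in capitals. The first set is of abundant liver microRNAs, with family members next to each other so that the shared seeds can be read.
miR-148a-3p: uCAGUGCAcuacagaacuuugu
miR-148b-3p: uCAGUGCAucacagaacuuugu
miR-152-3p: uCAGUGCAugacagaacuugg
miR-192-5p: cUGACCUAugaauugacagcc
miR-215-5p: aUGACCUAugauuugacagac
let-7f-5p: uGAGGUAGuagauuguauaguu
let-7g-5p: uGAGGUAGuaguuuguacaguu
let-7e-5p: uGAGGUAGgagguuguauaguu
miR-26a-5p: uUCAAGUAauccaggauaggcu
miR-21a-5p: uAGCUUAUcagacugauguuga
In GRCm38, miR-148a-3p lies on the minus strand at chr6:51269829-51269850 between annotated genes. miR-192-5p lies on the plus strand at chr19:6264857-6264877, also between genes. miR-21a-5p lies on the minus strand in an exon of Vmp1 at chr11:86584120-86584141.

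The second set is of microRNAs that were much lower in the ethanol-fed library and are cut from the plus strand of chromosome 12 between the noncoding RNA genes Meg3 and Mirg (chr12:109541001-109749460). miR-299b-3p, shown beside miR-299a-3p, is annotated on the opposite strand, and its 18 bases are the first 18 of miR-299a-3p.
miR-127-3p: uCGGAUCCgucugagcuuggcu
miR-379-5p: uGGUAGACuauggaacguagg
miR-411-5p: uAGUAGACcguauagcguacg
miR-299a-3p: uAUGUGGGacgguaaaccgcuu
miR-299b-3p: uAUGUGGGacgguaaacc
miR-376b-3p: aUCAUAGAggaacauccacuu
miR-381-3p: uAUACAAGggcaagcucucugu
miR-541-5p: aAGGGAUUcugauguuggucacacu
The mature miR-127-3p is at chr12:109592888-109592909 and miR-376b-3p at chr12:109723508-109723528, both outside other annotated genes of that strand, while miR-541-5p is in an intron of Mirg at chr12:109742422-109742446.

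The third set is of microRNAs that were much higher in the ethanol-fed library, together with lower ones from other chromosomes.
miR-217-5p: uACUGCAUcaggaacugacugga
miR-216a-5p: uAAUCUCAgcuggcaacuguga
miR-216b-5p: aAAUCUCUgcaggcaaauguga
miR-690: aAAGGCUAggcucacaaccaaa
miR-345-3p: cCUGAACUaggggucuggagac
miR-182-5p: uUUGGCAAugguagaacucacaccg
miR-96-5p: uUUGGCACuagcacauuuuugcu
miR-34a-5p: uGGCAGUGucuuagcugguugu
miR-217-5p (chr11:28763761-28763783) and miR-216a-5p (chr11:28757018-28757039) lie on the plus strand in introns of the noncoding gene Gm12082, and miR-216b-5p (chr11:28746204-28746225) lies upstream between genes. miR-182-5p (chr6:30165962-30165986) and miR-96-5p (chr6:30169506-30169528) share a stretch of the minus strand, and miR-34a-5p (chr4:150068473-150068494) lies on the plus strand, all between genes.

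The most abundant microRNAs differed little between the libraries. miR-148a-3p, an abundant liver microRNA, was at 185558 RPM (pair-fed) and 187898 RPM (ethanol-fed) (log2 ratio 0.02). miR-122-5p, the defining microRNA of hepatocytes, was at 182938 and 156660 RPM (log2 ratio -0.22), and miR-192-5p, which is cut from the same transcripts as miR-194, at 117318 and 109724 RPM (-0.10). The high miR-122-5p matches the labelled tissue. Of the brain list miR-124-3p and miR-9-3p were listed at 0 in both libraries and miR-9-5p was at 2.96 and 6.65 RPM, and of the striated muscle list miR-206-3p and miR-133b-3p were listed at 0, while miR-1a-3p was at 69.9 and 111 RPM and miR-133a-3p at 2.03 and 3.60 RPM. The 10 most abundant microRNAs of the pair-fed library held 75.17% of its RPM (95% Wilson interval 75.14% to 75.19%) and 73.57% of that of the ethanol-fed library (73.54% to 73.6%). Of the other 7 among them, let-7f-5p, miR-26a-5p, let-7g-5p, miR-194-5p and miR-126a-3p were higher in the ethanol-fed library, whereas miR-21a-5p and miR-101b-3p were lower, with log2 ratios between -0.14 and 0.24.

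A step of 0.09248 RPM in the pair-fed and of 0.09241 RPM in the ethanol-fed library fits the low values and was taken as 1 read, which implies totals of 10813149 and 10821340 reads on microRNAs. The lowest listed value of 0.92 RPM is then 10 reads, and a microRNA listed at 0 was read as below it. Intervals of a ratio were computed from the implied reads and, as PCR copies were not told apart, cover counting error only. Of the 469 microRNAs, 402 were listed above 0 in both libraries, 31 in the ethanol-fed library only and 36 in the pair-fed library only.

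With zeros set to 0.92 RPM, 27 microRNAs (5.76%) were at least 2-fold higher and 49 (10.4%) at least 2-fold lower in the ethanol-fed library. In all 233 were higher, 226 lower and 10 equal, with a median log2 ratio of 0.00 and a standard deviation of 0.86. Differences of this size were found among scarce microRNAs. Of the 17 microRNAs at 10000 RPM or more, which held 85.6% of the pair-fed and 85.2% of the ethanol-fed RPM, none was past 2-fold, nor was any of the 35 at 1000 to 10000 RPM. The standard deviation of the log2 ratios was 0.17 in the first of these classes, 0.27 in the second, 0.53 among the 75 microRNAs at 100 to 1000 RPM and 1.14 among the 139 at 10 to 100 RPM. At 100 to 1000 RPM 0 were past 2-fold higher and 3 lower, and at 10 to 100 RPM 10 were higher and 19 lower. Among the 203 under 10 RPM, 17 were past 2-fold higher and 27 lower. The standard deviation there was 0.84, with zeros set to 0.92 RPM.

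**Figure D1:**
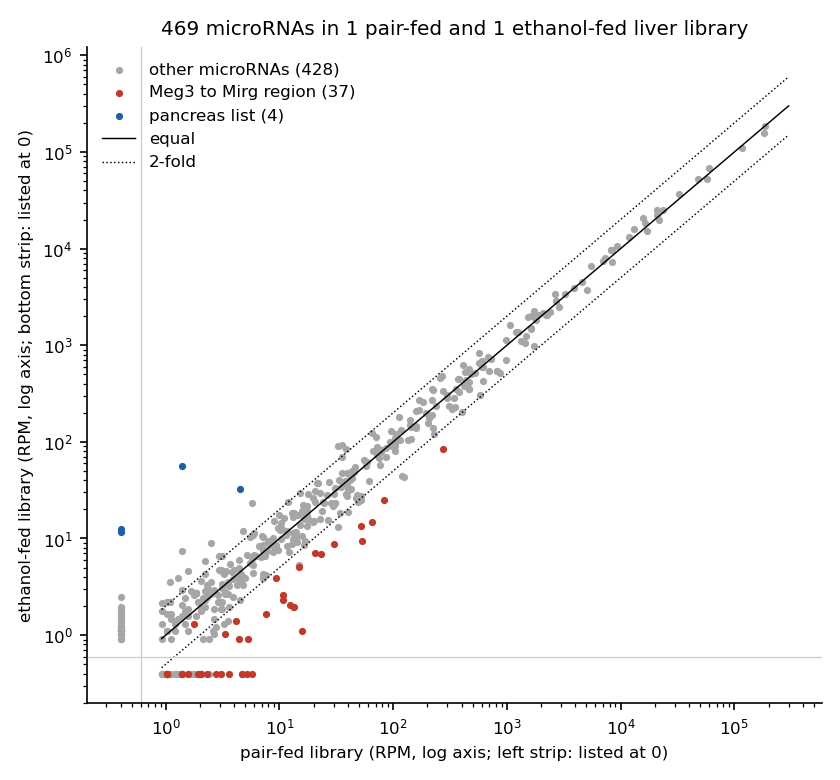
RPM of 469 microRNAs in the pair-fed (x axis, log) and the ethanol-fed library (y axis, log) of experiment 2, each point 1 microRNA, with values listed at 0 drawn in the strips at the left and bottom. The 37 microRNAs of the Meg3 to Mirg region all lie below the line of equal RPM, the 4 of the pancreas list lie above the 2-fold line, and points spread less toward high RPM.

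By seed, the 396 microRNAs with a sequence fell into 318 families, of which 271 had 1 member and the largest 11. miR-122-5p and miR-143-3p, both above 10000 RPM, are among those without a sequence and are in no seed family. The same holds for miR-378a-3p (9229 RPM pair-fed, 10620 RPM ethanol-fed) and miR-30d-5p (8285 and 9721 RPM). The seed family of miR-30a-5p therefore has fewer members than the miR-30 list. Of the families with a sequence, the 20 most abundant held 73.51% of the pair-fed and 75.45% of the ethanol-fed RPM. In the ethanol-fed library 14 of them were higher and 6 lower, none past 2-fold. Among the 14, miR-101c and miR-101a-3p stand as separate families, although miR-101c lies inside miR-101a-3p and has nearly the same RPM. The sum of miR-199a-3p and miR-199b-3p likewise holds the same values under both names. The family of miR-148a-3p, miR-148b-3p and miR-152-3p summed to 189512 RPM (pair-fed) and 192197 RPM (ethanol-fed), a ratio of 1.014. The let-7 list, regulators of growth and differentiation, summed to 139726 and 151591 RPM, with 6 of 9 members higher. Within it let-7e-5p stood apart at 226 and 348 RPM (log2 ratio 0.62), while let-7f-5p at 60425 and 68880 RPM made up the largest part. The miR-30 list was higher in 5 of 5 members, from 45647 to 49568 RPM in sum, with log2 ratios of 0.01 to 0.23. With median-of-ratios scaling, however, miR-30e-5p, the closest to 0, was lower. Across all 469 microRNAs 233 were higher, as were 34 of the 52 at 1000 RPM or more. The widest ratios among the 20 families were those of miR-27, which was at 14990 and 18077 RPM (1.206), and of miR-7, at 5126 and 3718 RPM (0.7254).

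**Figure D2:**
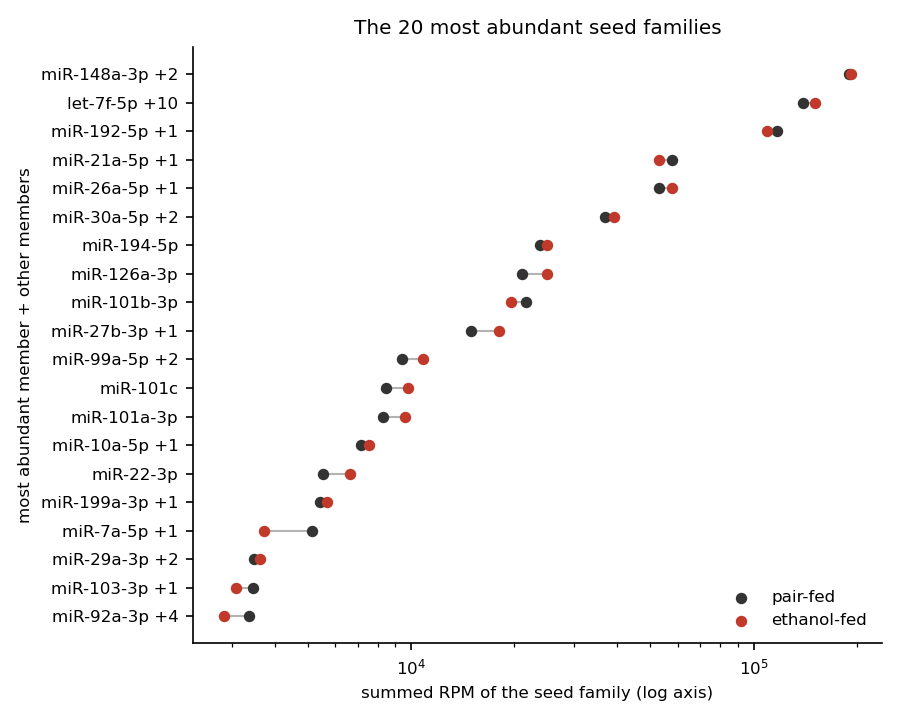
Summed RPM (x axis, log) of the 20 most abundant seed families among microRNAs with a sequence, in the pair-fed and the ethanol-fed library. Each row is named by its most abundant member and the number of further members. MicroRNAs without a sequence are left out, miR-122-5p, miR-143-3p, miR-378a-3p and miR-30d-5p among them. The 2 points of a row lie close together, with 14 families higher and 6 lower in the ethanol-fed library and ratios from 0.7254 to 1.206. The rows of miR-101c and miR-101a-3p are not separate, as the sequence of the first lies inside that of the second.

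The miR-15/16, miR-17/93 and miR-25/92 lists were lower in the ethanol-fed library in sum, each by less than 2-fold. The miR-15/16 list, known to target cell cycle genes, was lower in 6 of 6 members and summed to 1599 RPM (pair-fed) and 1185 RPM (ethanol-fed). Its most abundant member miR-16-5p was at 1437 and 1063 RPM. The miR-17/93 list was likewise lower in 6 of 6 members, from 892 to 600.05 RPM in sum. Its abundant members miR-20a-5p (352 and 230.3 RPM) and miR-93-5p (331 and 220.5 RPM) were within 2-fold, and its 2 members past 2-fold, miR-106a-5p and miR-20b-5p, were at 2.68 and 2.40 RPM in the pair-fed library. The related miR-25/92 list was lower in 4 of 5 members, with miR-25-3p at 987 and 699.3 RPM, and miR-19a-3p, from the transcript that also gives miR-17 and miR-20a, was at 52.6 and 25.2 RPM. Across all 469 microRNAs 226 were lower, and members of a family that are cut from 1 transcript are not independent. In experiment 1, the first deposited table, the miR-15/16, miR-17/93 and miR-25/92 lists were higher in the ethanol-fed library in sum. Their log2 ratios there were 0.08, 0.18 (4 members listed) and 0.18.

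The 3 members of the miR-183 list (miR-183-5p, miR-96-5p and miR-182-5p) were all lower, and their sum was 192 RPM (pair-fed) and 75.9 RPM (ethanol-fed). miR-182-5p was at 125 and 42.9 RPM, 2.92-fold lower (counting interval 2.62 to 3.25), and miR-96-5p at 14.8 and 5.27 RPM. These microRNAs share 1 transcript and are best known from sensory organs. miR-34a-5p, a p53 target that restrains cell division, was at 119 and 44.5 RPM, 2.69-fold lower (2.42 to 2.99). Its relatives were higher and scarce, miR-34c-5p at 10.4 and 12.5 RPM and miR-34b-5p at 0.92 and 2.13 RPM. Of the 6 microRNAs known to be induced in inflammation, 2 were higher and 4 lower, none past 2-fold. miR-146a-5p, which dampens Toll-like receptor signalling, was at 1722 and 987 RPM and miR-155-5p at 13.7 and 10.9 RPM, while miR-21a-5p, often induced in injured liver, was at 57661 and 53062 RPM. The 2 higher ones were miR-132-3p at 17.6 and 19.3 RPM and miR-212-3p at 2.31 and 2.50 RPM.

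The microRNAs of blood cells were lower in the ethanol-fed library of experiment 2. The red cell list was lower in 4 of 4 members and summed to 1826 and 1152 RPM. miR-451a was at 873 RPM (pair-fed) and 514 RPM (ethanol-fed), and miR-486a-5p, whose values are identical to those of miR-486b-5p, at 818 and 540.4 RPM. The white cell list was lower in 5 of 5 members, from 886 to 473 RPM in sum, with miR-142a-5p at 583 and 309 RPM and miR-223-3p at 26.7 and 15.6 RPM. None of these 9 microRNAs was past 2-fold, and across all 469 microRNAs 226 were lower. In experiment 1 the red cell list went the other way, at 11560 RPM (pair-fed) and 33910 RPM (ethanol-fed) in sum (log2 ratio 1.55). The white cell list was at 404 and 336 RPM there (-0.27). The libraries of experiment 1 also differed in makeup from those of experiment 2, as given below. Of the other cell types, endothelium was higher in 2 of 2 members (1.179-fold in sum), and the mesenchyme list, marks of fibroblasts and smooth muscle, was higher in 2 of 5 (3 when miR-148a-3p is left out of the total, as miR-145a-5p is near 0), its leading microRNA miR-143-3p being at 15722 and 20681 RPM.

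The epithelium list was higher in 5 of 5 members and summed to 519 RPM (pair-fed) and 887 RPM (ethanol-fed). miR-200a-3p was at 257 and 453 RPM, miR-200b-3p at 219 and 357 RPM, and miR-200c-3p at 15.3 and 29.9 RPM. The log2 ratios of the 5 lay between 0.70 and 0.97. These microRNAs, which restrain the Zeb repressors of the epithelial state, come from 2 clusters of hairpins. Across all 469 microRNAs 233 were higher. In experiment 1 the epithelium list differed little, at 61.4 RPM (pair-fed) and 61.9 RPM (ethanol-fed) in sum (log2 ratio 0.01).

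**Figure D3:**
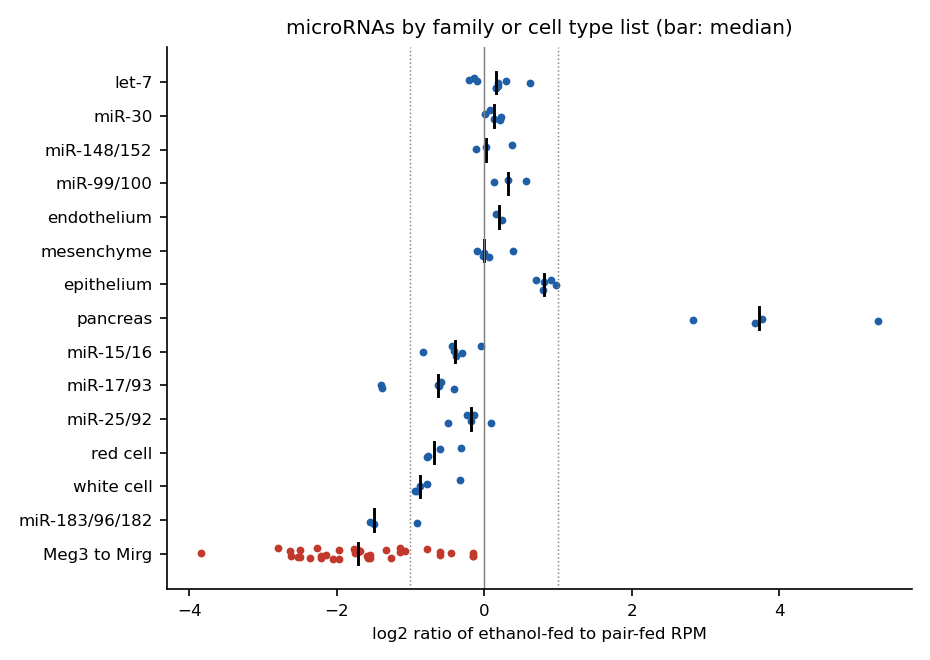
Log2 ratio of ethanol-fed to pair-fed RPM (x axis) for each microRNA of 14 family or cell type lists and of the Meg3 to Mirg region, with a bar at the median, dotted lines at 2-fold and zeros set to 0.92 RPM. The pancreas list lies at 2.84 to 5.34, the epithelium list at 0.70 to 0.97, the red and white cell lists below 0, and the Meg3 to Mirg region at -3.84 to -0.15.

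The region between Meg3 and Mirg held most of the microRNAs past 2-fold lower. This stretch, which is imprinted and known for giving its noncoding RNAs and microRNAs from the maternal chromosome, holds 37 of the 469 microRNAs, from 26 hairpins. All 37 were lower in the ethanol-fed library, and 30 of them (81.1%) were past 2-fold. The share past 2-fold lower was 10.4% of all microRNAs, the region included, and 4.4% outside it. Of the 37, 16 were taken through the pair-fed library alone and could not be higher in the ethanol-fed library. Of the 21 above 0 in both libraries, 21 were lower and 20 past 2-fold. The grouping by this region was chosen after the values had been seen. The sum of the 37 was 755 RPM (pair-fed) and 196 RPM (ethanol-fed), 3.84-fold lower (counting interval 3.66 to 4.03). Their median log2 ratio was -1.71.

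miR-127-3p, which lies antisense to the placental gene Rtl1, was the most abundant of them at 272 RPM (pair-fed) and 84.7 RPM (ethanol-fed). miR-379-5p was at 83.0 and 25.3 RPM, and miR-381-3p at 65.1 and 14.7 RPM. The ethanol-fed value was the lower one in each case by more than the counting error, with counting intervals for the pair-fed excess of 2.98 to 3.46, 2.86 to 3.77 and 3.73 to 5.30. miR-541-5p (53.4 and 9.43 RPM) was 5.66-fold lower, and miR-411-5p was at 52.4 and 13.4 RPM. miR-376b-3p was at 15.9 and 1.11 RPM, 14.3-fold lower with a wide counting interval of 8.0 to 28.3, since the ethanol-fed value stands for few reads. Lower still in level were miR-434-5p at 30.0 and 8.78 RPM, miR-136-3p at 23.4 and 6.93 RPM, miR-337-5p at 12.5 and 2.03 RPM, miR-409-3p at 10.7 and 2.31 RPM and miR-127-5p at 10.7 and 2.59 RPM. miR-299a-3p was at 13.4 and 1.94 RPM and the shorter miR-299b-3p at 13.0 and 1.94 RPM, so that the reads of these 2 names cannot be told apart.

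Of the 37 microRNAs, 21 were above 0 in both libraries, and 20 of these were past 2-fold. The other 16 were listed in the pair-fed library only, the highest being miR-411-3p at 5.73 RPM and miR-494-3p at 5.18 RPM. The lower values ran along the whole region. Between Meg3 and Rian 7 of 9 were past 2-fold, between Rian and Mirg 13 of 16, within Mirg 9 of 10, and within Rian 1 of 2. In experiment 2 the region held 7.89% of the microRNAs and 61.2% of those past 2-fold lower. Of the 402 microRNAs above 0 in both libraries 21 were of the region, and of the 35 of these past 2-fold lower 20 were. Among the 432 microRNAs outside the region, 27 were past 2-fold higher (6.25%) and 19 lower (4.4%), miR-299b-3p and miR-299b-5p of the opposite strand among the latter.

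Hairpins close on a chromosome made up 34 clusters of at least 3 microRNAs, with gaps of at most 50000 bp. The median log2 ratio was below -1 in 3 clusters, which are 2 stretches of the Meg3 to Mirg region and the miR-183 cluster, above 1 in the cluster of miR-216 and miR-217, and in between in the other 30. Among these the cluster of miR-99b, let-7e and miR-125a on chromosome 17 was higher throughout, in 6 of 6, and its median log2 ratio was 0.73. The X-linked cluster of miR-106a and miR-20b was lower in 5 of 5, with a median of -0.99. Its members miR-92a-3p and miR-19b-3p are counted in the miR-17 cluster of chromosome 14 as well. These values therefore cannot be given to the X-linked hairpins alone.

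In the first deposited table (experiment 1), which was counted separately and has whole reads for 1 ethanol-fed and 1 pair-fed library, the region had the opposite direction. Of its 37 microRNAs 26 were listed there, and the 16 with reads in both libraries were higher in the ethanol-fed library in 13 cases and lower in 3, with a median log2 ratio of 1.23. The summed reads were 1069 of 4170601 in the pair-fed and 2781 of 4311802 in the ethanol-fed library, which is 256 and 645 RPM. Thus miR-127-3p had 367 and 1092 reads, miR-541-5p 283 and 652 reads, and miR-411-5p 278 and 712 reads, whereas miR-379-5p had 8 and 4. Among all 347 microRNAs with reads in both libraries of experiment 1, 181 were lower and the median log2 ratio was -0.03. The libraries of the experiments also differed in makeup. In experiment 1 miR-122-5p was at 2971 RPM (pair-fed) and 2210 RPM (ethanol-fed), and miR-192-5p at 388200 and 373100 RPM. In experiment 2 miR-122-5p was at 182938 and 156660 RPM, and miR-192-5p at 117318 and 109724 RPM. The difference between the experiments was not tested. In both tables the direction rests on the column names, which no value used here checks.

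**Figure D4:**
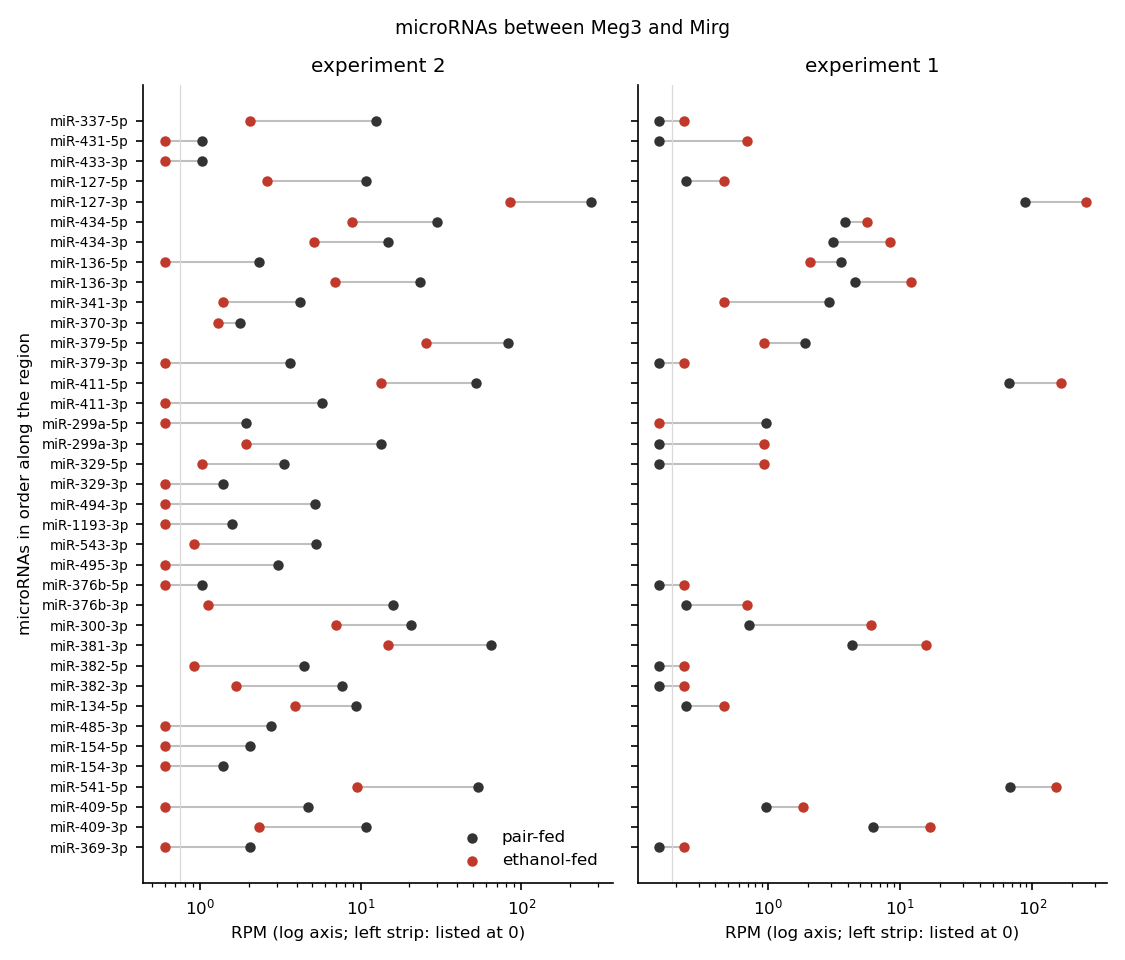
RPM (x axis, log) of the 37 microRNAs between Meg3 and Mirg, in their order along the region, in the pair-fed and the ethanol-fed library of experiment 2 (left) and, where listed, of experiment 1 (right), with zeros in the strip at the left of each panel. In experiment 2 the ethanol-fed point is to the left in all 37 rows, and in experiment 1 it is to the right in 13 of the 16 rows with reads in both libraries.

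Besides the 37 microRNAs of the plus strand, 8 microRNAs that reached 10 RPM in a library were past 2-fold lower. Of these, miR-299b-3p lies within the same stretch on the opposite strand. The others are miR-182-5p, miR-96-5p, miR-34a-5p and miR-19a-3p, given above, and miR-1948-5p, miR-149-5p and miR-342-3p. miR-1948-5p was at 32.8 and 13.0 RPM, miR-149-5p at 40.1 and 18.8 RPM, and miR-342-3p, which is found in white cells, at 48.5 and 23.8 RPM. In experiment 1 miR-182-5p had 34472 and 18123 reads (log2 ratio -0.98), and miR-34a-5p had 24 and 19.

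The largest ratios upward were in the pancreas list, in which 4 of 4 members were past 2-fold, against 5.76% of all microRNAs. Of these, miR-216a-5p and miR-216b-5p were taken through the ethanol-fed library alone and could not be lower in it. They also lie in 1 cluster with miR-217-5p, so the 4 are not independent. miR-217-5p was at 1.39 RPM (pair-fed) and 56.4 RPM (ethanol-fed), 40.6-fold higher (counting interval 24.4 to 73.1). miR-375-3p, the microRNA of pancreatic islets, was at 4.53 and 32.4 RPM (7.14-fold). Both miR-216b-5p, at 12.6 RPM in the ethanol-fed library, and miR-216a-5p, at 11.7 RPM, had a listed 0 on the pair-fed side, and were at least 13.7-fold and 12.8-fold higher. Their 3p arms miR-216b-3p (2.50 RPM) and miR-216a-3p (1.66 RPM) were listed in the ethanol-fed library only. The 5 microRNAs of this chromosome 11 cluster summed to 1.39 and 84.8 RPM, a small part of a library of 999896 RPM. In experiment 1, miR-375-3p had 355 (pair-fed) and 205 reads (ethanol-fed) and miR-216b-5p had 0 and 4, while miR-217-5p and miR-216a-5p were not listed. Whether pancreas tissue was present was not tested.

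Beyond the pancreas list, 6 microRNAs that reached 10 RPM in a library were past 2-fold higher. miR-690 was at 5.73 and 23.3 RPM (4.07-fold), and miR-345-3p at 32.5 and 89.9 RPM (2.77-fold). miR-3963 was at 35.6 and 92.7 RPM, miR-3470b at 4.81 and 11.9 RPM, miR-1981-5p at 38.4 and 83.9 RPM, and miR-27a-5p at 11.9 and 23.9 RPM. miR-3968 (35.7 and 69.5 RPM), with miR-200c-3p, came next and was within 2-fold. Among the 73 microRNAs numbered 1000 or above, 12 were past 2-fold higher (16.4%) and 3 lower (4.11%). Among the other 396 it was 15 (3.79%) and 46 (11.6%). These 46 include the 30 of the Meg3 to Mirg region, none of which is numbered 1000 or above. Of the 43 names without an arm, 10 were past 2-fold higher (23.3%) and 1 lower (2.33%).

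By arm, 5p and 3p microRNAs kept much the same shares of the libraries. The 206 names of 5p arms held 66.6% of the pair-fed and 64.7% of the ethanol-fed RPM, and the 220 of 3p arms 31.9% and 33.7%. In both groups 24 were past 2-fold lower, while 10 of the 5p and 7 of the 3p arms were past 2-fold higher. Both arms had values above 0 in both libraries for 105 hairpins, and the 5p arm was the higher in 58 of them (pair-fed) and in 57 (ethanol-fed). The arms lay a median of 10.8-fold apart in the pair-fed and 10.4-fold in the ethanol-fed library.

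The ratio of the arms within a library does not depend on the library total, and it differed little between the libraries, by a median of 0.25 on the log2 scale. It was at least 2-fold further toward the 3p arm in the ethanol-fed library in 4 hairpins (3.81%) and at least 2-fold further toward the 5p arm in 0 (0%). Of the 4 hairpins, miR-345 alone had at least 10 RPM in each arm of each library, out of 47 such hairpins. Its 5p arm was at 13.4 and 18.5 RPM and its 3p arm at 32.5 and 89.9 RPM, so that the 3p arm was 2.42-fold above the 5p arm in the pair-fed and 4.87-fold in the ethanol-fed library. For let-7d the 3p arm was at 167 and 274 RPM beside a 5p arm at 1745 and 1984 RPM. Smaller differences toward the 3p arm were found in miR-151, miR-3068, miR-199b and miR-145a (log2 -0.61 to -0.51), but miR-199b-3p has the same sequence and values as miR-199a-3p, so that the arm ratio of miR-199b is not its own.

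In the other direction, miR-27a-5p was at 11.9 and 23.9 RPM beside 1867 and 2043 RPM of its 3p arm, a difference of 0.87 on the log2 scale toward the 5p arm. miR-1981 followed with 0.77 and miR-361 with 0.59, and those of miR-214, miR-425 and miR-140 were between 0.25 and 0.42. The dominant arm differed between the libraries only in miR-669a among the 105 hairpins, whose arms were at 7.20 (5p) and 3.14 RPM (3p) in the pair-fed and at 3.87 and 4.62 RPM in the ethanol-fed library. Several copies of this family have identical values, so that their reads cannot be told apart. Both arms of a hairpin were on the same side of equality in 74 hairpins and on opposite sides in 30.

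**Figure D5:**
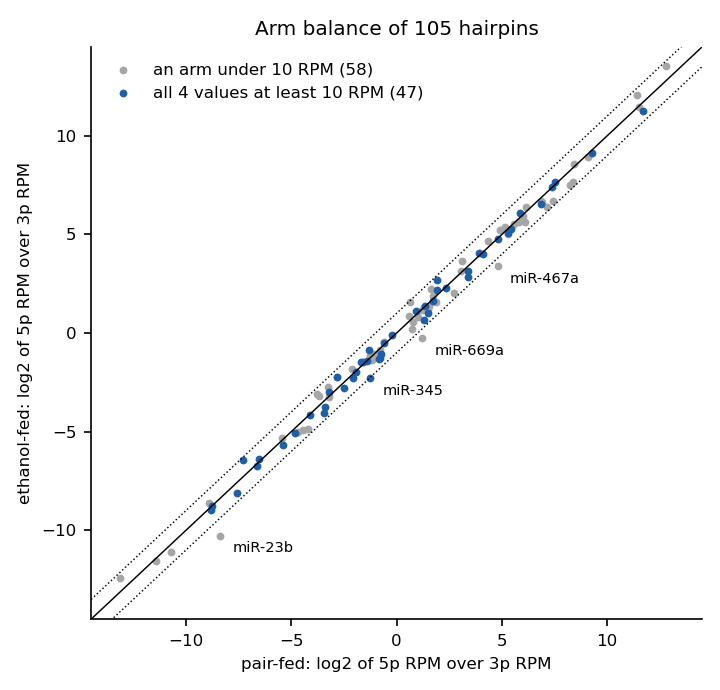
Log2 of 5p over 3p RPM within the pair-fed (x axis) and within the ethanol-fed library (y axis) for 105 hairpins, with the line of equality and dotted lines at a 2-fold difference. Points lie along the line from the 3p to the 5p side, and the 4 labelled hairpins, miR-345 among them, lie past the dotted line on the 3p side.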

How the data were processed

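For experiment 2 the authors deposited RPM for mature microRNAs, and the 2 columns are each present in 2 identical copies, of which the first was used. The RPM sum to 999899 and 999896, so they are per 1000000 reads on microRNAs. For experiment 1 the authors deposited counts of reads without normalization, which were scaled here to the sum over microRNAs. The table of experiment 2 also holds the authors' log2 fold change and p-value, which were not used. Columns were matched to the sample labels by name, and 0 were left without a group. No value used here checks these names, on which every direction rests. The submitters' processing notes name the build mm8, and the aligner, annotation and filters are not given in the sources used here. Small RNAs were size-selected on gels before sequencing.

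Whole steps, within 0.006 RPM, were found for 97.0% of 296 pair-fed and 95.5% of 291 ethanol-fed values under 60 RPM. Ratios of implied reads have 95% exact binomial intervals. A microRNA was counted past 2-fold at a ratio of 2 or more, with a listed 0 set to 0.92 RPM, so that its ratio is a lower bound. Neither tests nor p-values were computed with 1 library per group.

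MicroRNAs were named by a rule, which took the 10 most abundant of the pair-fed library, the 12 largest ratios in each direction among those with at least 10 RPM in a library, the 3 highest listed in a single library, the 6 hairpins with the largest arm difference each way among those with at least 10 RPM in each arm, the 20 most abundant seed families and the members of the lists. Any other was singled out once its values were known. The microRNAs and lists were chosen with earlier results of these data known. Positions are from RefSeq and GENCODE vM21 (GRCm38), and mature sequences from RefSeq (GRCm38.p6). The ratio and step calculations were tested on simulated data. The tools were scipy 1.17.1, numpy 2.4.6, matplotlib 3.10.9 and pandas 2.3.3 in Python 3.11.15.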

Additional observations from a re-analysis of the deposited data

How the results depend on the processing

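The 27 microRNAs past 2-fold higher became 41 with a pseudocount of 1 RPM, 50 with a pseudocount of 0.1 RPM and 62 at 1.5-fold. The 49 past 2-fold lower became 60 and 71 with these pseudocounts and 86 at 1.5-fold. With zeros left out, 22 were past 2-fold higher and 35 lower. Of the 266 microRNAs with at least 10 RPM in a library, 10 were past 2-fold higher (3.76%) and 22 lower (8.27%). Of the 127 with at least 100 RPM, 0 were higher and 3 lower (2.36%). Without the Meg3 to Mirg region 19 were past 2-fold lower. This alternative was chosen after seeing the data, as was counting microRNAs of identical values once (25 higher, 46 lower). The higher share of all microRNAs past the fold was 35.5%, against 58.7% without the region and 0% at 100 RPM. Hairpins further toward the 5p arm numbered 7 rather than 0 with zeros at the lowest listed value, and those toward the 3p arm 1 rather than 4 with at least 10 RPM in each arm. The log2 ratio of the region's sum, -1.94, was -1.71 as the median of members and -2.11 without its most abundant member. The miR-34 list turned from -1.15 to 0.26 as the median and 0.36 without miR-34a-5p. Other scalings shifted log2 ratios by 0.0124 at most and turned the direction of 3 list members close to 0 (miR-30e-5p, miR-215-5p and miR-145a-5p). No paired analysis was possible because each group has 1 library, and for the same reason no replicate could be left out. MicroRNAs under 10 implied reads are listed at 0 and cannot be compared. The cause of these differences was not tested, beyond the fewer microRNAs that a minimum RPM leaves.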

Other observations

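Directions differed with the GC content of the mature sequence, and this was not tested. Of the 127 microRNAs in the upper class of GC content (52.4% and above), 77 were higher and 44 lower, with a median log2 ratio of 0.15. Of the 137 in the lower class (42.9% and below), 54 were higher and 83 lower, with a median of -0.14. Without the Meg3 to Mirg region, whose 37 members span 23.8% to 68.2% GC, the medians were 0.19 and -0.09. The microRNA miR-802-5p, known from liver and pancreas, was at 111 RPM (pair-fed) and 182.1 RPM (ethanol-fed). It belongs to the hepatocyte list, with miR-122-5p, miR-192-5p and miR-194-5p. This list was higher in 2 of 4 members and summed to 324136 and 291554 RPM. miR-383-5p was listed in the pair-fed library only, at 4.72 RPM, and had 14 and 4 reads in experiment 1. Pairs in which a mature sequence lies inside another numbered 6. In these, miR-101c had 8417 and 9760 RPM and miR-101a-3p 8281 and 9605 RPM, and miR-374c-5p had 461 and 352 RPM, as had miR-374b-5p.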
